A study of Mus musculus with 3 samples.

Results

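NMDA and delta receptors are ionotropic glutamate receptors. An NMDA receptor is a calcium-permeable channel that needs the GluN1 subunit, encoded by Grin1, together with GluN2 or GluN3 subunits. A receptor of GluN1 and GluN2 opens when glutamate and a co-agonist, glycine or D-serine, bind while the membrane is depolarised. Delta receptors belong to the same superfamily by sequence but act mainly as synaptic organisers, joined through secreted cerebellins to neurexins on the axon. Oligodendrocyte progenitor cells carry NMDA receptors and receive synaptic input from axons, and NMDA receptors of oligodendrocytes are known for their part in calcium entry during ischaemia and in the response of myelinating cells to axonal glutamate.

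The 8 genes described here are Grin1, Grin2a, Grin2b, Grin2c, Grin2d, Grin3a and Grin3b, which encode the NMDA receptor subunits, and Grid1, which encodes the delta receptor GluD1. They were taken by name, and every genomic region of the deposited Nkx2.2 table that the authors assigned to 1 of them was kept. This gave 29 regions of 37271 in all, at 5 of the 8 genes. Nkx2.2 is a homeodomain transcription factor of the oligodendrocyte lineage, and its binding was mapped by chromatin immunoprecipitation and sequencing (ChIP-seq) with a monoclonal antibody.

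Both ChIP libraries came from C57BL/6 mice, from cells of the cortex at postnatal day 7 isolated with an antibody to PDGFRA, at 1.5e7 cells per library. Per the labels, the cells for both were isolated and grown in parallel, so each library stands for 1 culture experiment. The oligodendrocyte progenitor cells (OPC) were kept dividing in serum-free medium that held 10 ng/mL of PDGF-AA, 10 ng/mL of CNTF and 1 ng/mL of NT-3. The oligodendrocytes (OL) were postmitotic cells made from such progenitors in culture, where for 48 h PDGF-AA was left out and 40 ng/mL of T3, a thyroid hormone, was added. An input library of the same cells is part of the series and was not analysed here. Each state has 1 library, so no difference below has a replicate check, and none was tested. Values are the deposited average signal over a region unless said otherwise, in the authors' units, and sequencing depth is unknown. The cell type of the libraries could not be checked against marker expression, since binding was measured and not RNA.

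Most Nkx2.2 regions at these genes lay inside Grid1 or Grin2b, and none lay at a member's own start. Grid1 held 20 of the 29 regions and Grin2b, the gene of the GluN2B subunit, held 5. Grin3b had 2 regions, and Grin2a and Grin2c had 1 each. Grin1, Grin2d and Grin3a had no region assigned to them. Over all genes of the table, assignments reached at most 10534 bp upstream. Of 21900 protein-coding genes in RefSeq, 56.5% had at least 1 region, so 5 of 8 is near the share of all genes. An OPC call was present at 4 of the 8, against 32.9% of protein-coding genes, and an OL call at 5, against 53.9%. The number of regions was not adjusted for gene length. Among the 14473 gene names of the table the median was 2 regions, and 30 names had more than the 20 of Grid1.

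OPC calls were present at 8 of the 29 regions and OL calls at 27. The background over all deposited regions was 38.6% with an OPC call and 85.3% with an OL call. The members' shares were 27.6% (exact Clopper-Pearson 95% interval 12.7 to 47.2%) and 93.1% (77.2 to 99.2%), and both intervals include the share of all regions. The intervals allow for counting error alone and treat the regions as independent draws. Since 20 of the 29 lie in Grid1, that does not hold, and the intervals cannot decide whether the members differ from all regions. Both libraries had a call at 6 member regions, against 23.8% of all regions. Calls in OL only were seen at 21, against 61.4% of all regions, and calls in OPC only at 2, against 14.7%.

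The signal of most member regions was higher in the OL library. The log2 ratio of OL to OPC signal, computed with 1 unit added to each value, was above 0 at 26 of the 29 regions, and 77.4% of all regions had a ratio above 0. It was 1 or more at 15 members' regions, against 37.5% of all regions, and -1 or less at 0, against 7.03% of all regions. The median was 1.01 over the member regions and 0.74 over all regions. Grid1 supplied 13 of the 15. Without Grid1 the median was 0.76 over 9 regions, of which 2 had a ratio of 1 or more. With the median of all regions set to 0, a shift of 0.74, 8 member regions reached a ratio of 1 and 3 lay at -1 or less, against 13.2% and 17.5% of all regions, and 21 stayed above 0. Any region below with a ratio under 0.74 would be the higher in OPC on that scale. The threshold passed close to some regions, with 1.01 and 0.94 as the nearest values inside and outside it, both in Grid1.

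No member region had its middle within 1 kb of the start of its member gene. Counting the start of any assigned gene, 3 of the 29 (10.3%) lay within 1 kb, against 17.7% of all regions, and the starts were those of Fdxr, ORF61 and Mirn346. The region nearest to a member start was 2275 bp upstream of Grin2b, and the nearest in Grid1 was 6013 bp into the gene. Of the 25 regions inside a member, 18 lay more than 100 kb from its start, or 72%, against 25.8% of all regions inside a gene. These shares were not matched for gene length, and a gene shorter than 100 kb cannot hold such a region. The contrast therefore cannot decide whether binding far from the start is a trait of the members.

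2 sets of sequence are given beside these regions, a microRNA that lies within Grid1 and promoters at or near the NMDA genes. The table assigns 4 regions of Grid1 to Mirn346 as well, the older name of Mir346. Its mature sequences from RefSeq (GRCm38.p6, chromosome 14, plus strand) are given with the seed, bases 2 to 8, in capitals.
mmu-miR-346-5p: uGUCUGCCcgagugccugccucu
mmu-miR-346-3p: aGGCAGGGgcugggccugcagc
The seeds of the 5p and 3p arms differ, so the arms fall in different seed groups.

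The region assigned to Grin2c is the 1 member region that reaches over the deposited start of a gene. It spans from 573 bp upstream of the deposited start of Fdxr, the gene of ferredoxin reductase, to 417 bp into that gene. The 250 bases before the RefSeq start of Fdxr are shown beside those of Grin1, the gene of the obligatory subunit, which has no region (both GRCm38.p6, minus strand, on chromosomes 11 and 2). Capitals mark the letters AAGTG, a core of the sites that factors of the NK2 class bind, or the reverse complement.
Fdxr: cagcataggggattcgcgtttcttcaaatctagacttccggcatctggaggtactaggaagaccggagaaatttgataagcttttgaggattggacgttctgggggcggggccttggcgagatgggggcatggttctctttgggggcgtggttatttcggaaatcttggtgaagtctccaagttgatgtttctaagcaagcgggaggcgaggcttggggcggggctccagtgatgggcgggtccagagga
Grin1: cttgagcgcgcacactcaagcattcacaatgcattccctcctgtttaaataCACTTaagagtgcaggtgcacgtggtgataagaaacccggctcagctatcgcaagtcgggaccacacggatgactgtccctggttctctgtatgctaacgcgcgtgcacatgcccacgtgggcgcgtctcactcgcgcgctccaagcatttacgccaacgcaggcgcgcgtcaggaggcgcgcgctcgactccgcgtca
The letters occur once before Grin1, beginning 199 bases before its start, and not in the stretch shown for Fdxr. The rest of the region at Fdxr was not searched, and the RefSeq start was not compared with the deposited one. The matches therefore cannot be set against the calls. Searched on both strands, they occur in 40.7% of 32851 promoters of that length. Among the members with a promoter in the table, Grin3b also holds 1 match and Grin2c and Grin2d hold 0. Grin1 carries 27 CpG dinucleotides in these 250 bases and Fdxr 13, against a median of 6.

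Grin2b encodes the GluN2B subunit, which predominates in NMDA receptors of the immature brain, and it carried the strongest region of the family. This region, chr6:136115236-136116035 (mm9), lay 7894 bp into the gene and was called in both libraries. The average signal was 55.0 for OPC and 32.4 for OL, which placed it at rank 3 of all regions in OPC and rank 76 in OL. The highest signal within it was 129 in OPC and 108 in OL. It was thus strong in both states, and its log2 ratio was -0.75 by the average and -0.25 by the highest signal.

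The other 4 regions of Grin2b were much weaker, and they did not share 1 direction. A region 2275 bp upstream of the start, chr6:136125504-136126105, had 2.50 in OPC and 4.95 in OL and was called in OL only. At 162951 bp into the gene, chr6:135960275-135960881 had 4.95 in OPC and 3.60 in OL and was called in OPC only. Deeper in the gene the OL library was higher. The region at 355840 bp, chr6:135767289-135768089, had 4.29 in OPC and 10.1 in OL, with 1.07 as the log2 ratio. The last one, at 438935 bp and chr6:135684131-135685058, had 1.5 and 7.79, a ratio of 1.81. Both were called in OL only. Along the gene, then, OPC calls lay at the region 7894 bp and the region 162951 bp from the start, and OL-only calls at the upstream region and the pair farthest into the gene.

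**Figure D1:**
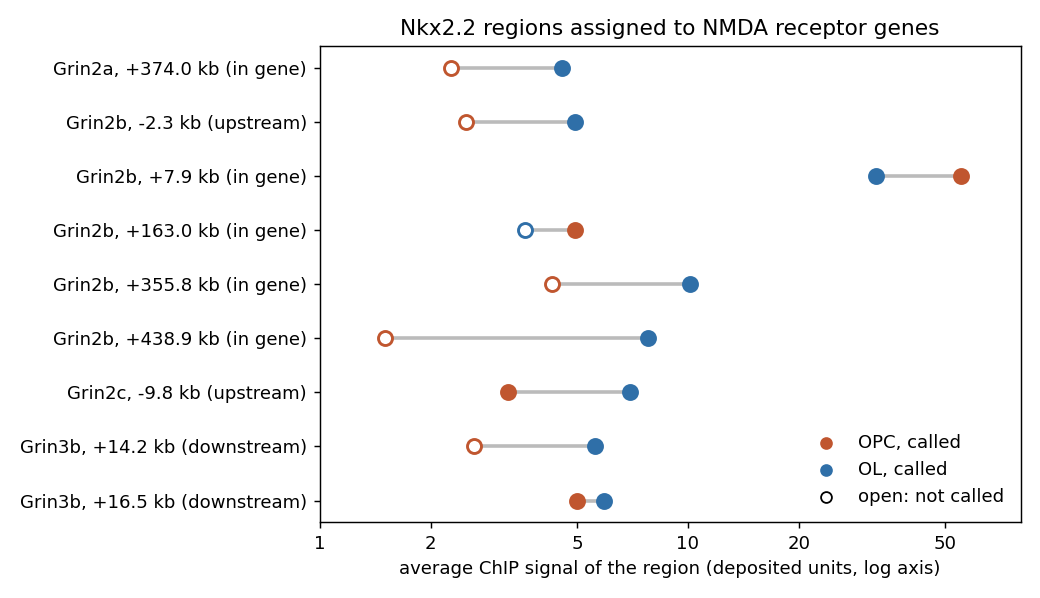
Average Nkx2.2 signal (horizontal log axis, deposited units) of the 9 regions assigned to NMDA receptor genes, with the distance from the gene start on the vertical axis. Points are single libraries, filled where the library had a call, and the Grin2b region at 7894 bp stands far to the right in both, at 55.0 for OPC and 32.4 for OL.

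Of the other GluN2 genes, Grin2a, whose subunit joins receptors of the maturing brain, had a single region 374001 bp into the gene. It lay at chr16:9618405-9618846, with 2.27 in OPC and 4.54 in OL, and was called in OL only. Its OL signal was at percentile 38.2 of all regions. Grin2c, whose subunit has been described in oligodendrocyte receptors, had a single region 9804 bp upstream, chr11:115137866-115138856, called in both libraries. Its signal was 3.24 in OPC and 6.97 in OL, with 0.91 as the log2 ratio. This is the region whose middle lies 78 bp upstream of Fdxr, and it is assigned to Fads6 as well, so its assignment to Grin2c rests on distance alone. Grin2d, the remaining GluN2 gene, had no region. For Grwd1 and Kdelr1, the protein-coding genes on either side of it in RefSeq, none was found by name either. A neighbour listed under a name that did not match RefSeq would be missed.

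Of the GluN3 genes, Grin3b had 2 regions, both downstream of the gene, and Grin3a had none. GluN3 subunits lower the calcium permeability of the receptors they join. The region 14213 bp from the Grin3b start, chr10:79447252-79448113, had 2.63 in OPC and 5.59 in OL and was called in OL only. The region at 16451 bp, chr10:79449730-79450111, had 5 in OPC and 5.91 in OL and was called in both. Their log2 ratios were 0.86 and 0.20. Both are also assigned to ORF61, at 607 and 2845 bp upstream of its start, and to Cnn2, the calponin gene, at 3663 and 1425 bp upstream. Each thus lay closer to the start of another gene than to that of Grin3b.

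Grin1 had no region, so the obligatory NMDA subunit carried no Nkx2.2 call in either library. Man1b1, next to it in RefSeq, had 1 region 173 bp upstream of its start with 1.20 in OPC and 5.48 in OL. For Lrrc26, on the other side, none was found by name. Beside Grin3a, Rnf20 had a region 154 bp upstream of its start with 2.19 in OPC and 4.84 in OL, called in OL only. For Ppp3r2 none was found by name.

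Grid1, the gene of GluD1, had the most regions of the members, and most of them were called in OL only, as in the whole table. The 20 regions ran from 6013 to 695968 bp from the start on chromosome 14, all inside the gene, with gaps of up to 184.9 kb between them. OL calls were present at 19 and OPC calls at 4, with 16 called in OL only, 3 in both and 1 in OPC only. Of all regions, 85.3% had an OL call and 38.6% an OPC call. Calls in OL only made up 61.4% of all regions, calls in both 23.8% and calls in OPC only 14.7%. Average signal in OPC ranged from 0 to 6.85 with a median of 2.07, and in OL from 1.71 to 17.2 with a median of 5.74. The log2 ratio ranged from -0.95 to 2.83 with a median of 1.25, and 13 regions had 1 or more. Over all regions the median was 0.74, and 37.5% had a ratio of 1 or more.

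The strongest OL signals of Grid1 were at 3 regions far apart, none of them called in OPC. The highest, chr14:36057902-36058543 at 424870 bp, had 17.2 in OL, at rank 691 of all regions, and 2.41 in OPC, which is a log2 ratio of 2.42. The region chr14:35780547-35780838, at 147340 bp, had 2.56 and 16.8, a ratio of 2.32. The region chr14:36315742-36316579, at 682808 bp, had 2.42 and 13.5, a ratio of 2.08, and its highest OL signal was 50 against 4 in OPC. In OPC these 3 regions had nearly equal signal, between 2.41 and 2.56. That is below the OPC median of 3.00 over all regions but above the OPC median of 2 over all regions called in OL only. The first region of the gene, chr14:35638955-35639775 at 6013 bp, had 2.13 in OPC and 7.24 in OL, a ratio of 1.4. Another strong one, chr14:35742928-35743841 at 110032 bp, had 1.16 and 7.29, a ratio of 1.94, and both were called in OL only. The last region of the gene, chr14:36329179-36329461, had 6.13 in OL and was listed at 0 in OPC, as was the region at 155147 bp, with 4.35 in OL.

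The ratio follows the call in the whole table, with a median of 0.24 over all regions called in both libraries. It was 1.12 over all regions called in OL only. A ratio of 1 or more was found at 9.45% of the former and 57.4% of the latter. Grid1 had 4 regions called in OPC. The highest, chr14:35887404-35888273 at 254486 bp, had 6.85 in OPC and 6.92 in OL and was called in both, with a ratio of 0.01. Those at 149383 and 268597 bp were also called in both, with 4.09 and 3.75 in OPC and 4.54 and 5 in OL. At 610281 bp, chr14:36243435-36243831 had 4.25 in OPC and 1.71 in OL. It was the 1 region of Grid1 called in OPC only and the 1 with a ratio below 0, at -0.95. The region called in both at 149383 bp began 1477 bp past the end of the one at 147340 bp, so neighbouring regions of the gene had log2 ratios of 2.32 and 0.12.

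Several regions of Grid1 lay close together around Mir346. The 4 regions that the table also assigns to Mirn346 lay within 11558 bp, 71750 to 82903 bp from the Grid1 start, and were all called in OL only. By distance from Mirn346 they were 2692 bp upstream and 971, 1956 and 8461 bp downstream. Their OPC signal was 1.36, 1.00, 4.11 and 1.00, and their OL signal 6.25, 6.07, 9.28 and 5.33. In each of the 4 the OL value was above the OPC value, with log2 ratios from 1.01 to 1.82. That direction nearly follows from the call. Of all 22901 regions called in OL only, 22704 had a ratio above 0. A ratio of 1 or more was found at 57.4% of them, and their median was 1.12. The third of the 4 Grid1 regions, chr14:35709283-35710217, held the 1 CpG island feature among all member regions. Of all regions 18% hold one, but the share depends on position. It was 14.3% of all regions inside a gene and 0.81% of those more than 100 kb from its start. Whether Mir346 or its precursor is transcribed in these cells was not measured.

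**Figure D2:**
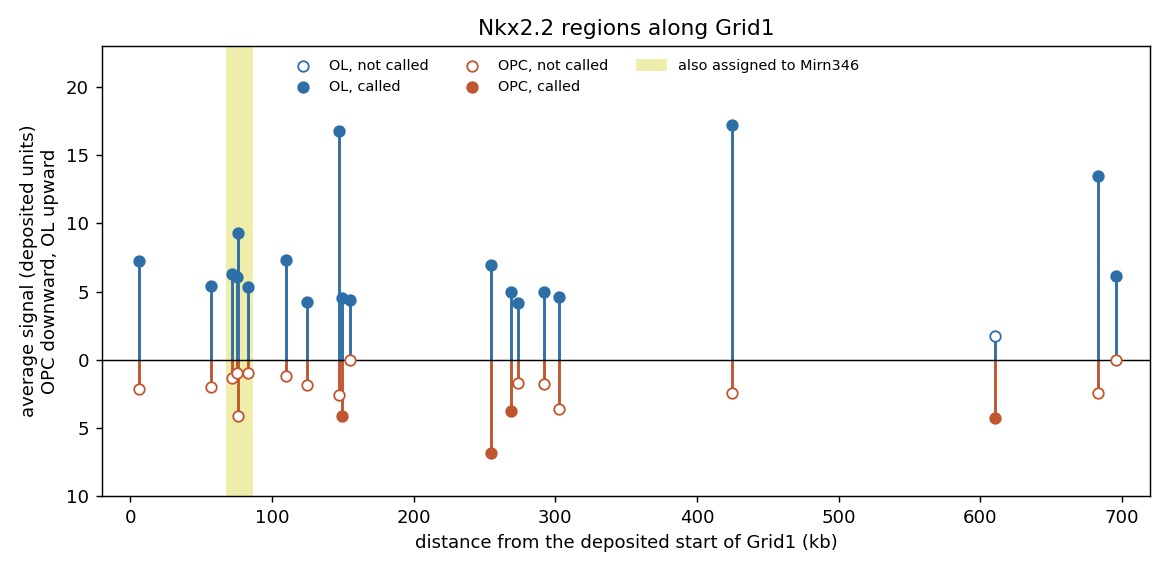
Average Nkx2.2 signal of the 20 Grid1 regions by distance from the gene start in kb, with OL upward and OPC downward in deposited units. Filled points are called regions, and the shaded band holds the 4 regions also assigned to Mirn346. OL calls run from 6013 to 695968 bp, with the tallest at 147340, 424870 and 682808 bp.

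The first part of Grid1 held the larger share of regions with a ratio of 1 or more. Of the 11 regions up to 155147 bp, all were called in OL and 1 in OPC, and 9 had a ratio of 1 or more. A gap of 98.6 kb followed. Beyond it, 8 of 9 regions were called in OL, 3 in OPC, and 4 had a ratio of 1 or more. The median ratio was 1.62 before the gap and 0.94 after it. Of all regions, 85.3% had an OL call, 38.6% an OPC call and 37.5% a ratio of 1 or more. Of all regions more than 100 kb into a gene, 43.7% had a ratio of 1 or more. The place of this division was chosen after the values were seen, so the counts cannot decide whether the parts differ.

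Position deep in a gene was set beside the same position in other genes. All regions lying more than 100 kb into a gene had a median log2 ratio of 0.87 over 4695 regions, with 37.8% called in OPC. The 14 regions of Grid1 beyond 100 kb had a median of 1.03, with 4 called in OPC. Among the 293 gene names with 10 or more regions, the median share of regions called in OPC was 39.1%, and 43 names had a share at or below the 20% of Grid1. A median ratio at or above that of Grid1 was found at 25 of the 293 names. The 43 and the 25 are 14.7% and 8.53% of the 293. Grid1 was thus not alone in having few OPC calls or a high ratio.

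**Figure D3:**
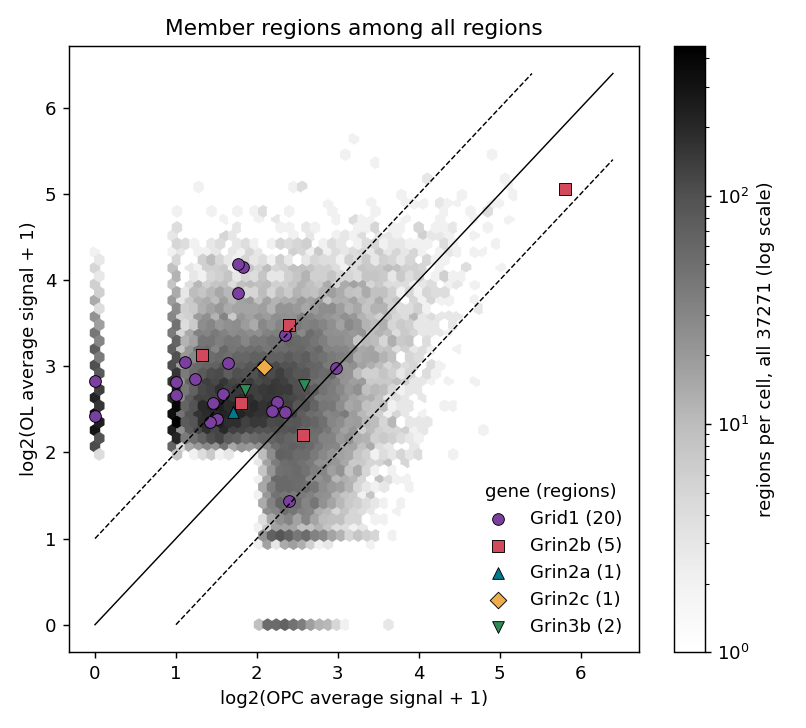
OL against OPC average signal, both as log2(signal + 1), for all regions (grey, shaded by number on a log scale) and for the 29 member regions (coloured by gene). The solid line marks equal signal and the dashed lines a log2 ratio of 1 and -1. Most Grid1 points sit above the upper dashed line, and the strongest Grin2b region sits at the upper right, below the line of equal signal.

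The AMPA and kainate receptor genes, the other ionotropic glutamate receptors, all had a region. Their 9 genes held 66 regions, of which 30 were called in OPC and 51 in OL, and the median ratio was 0.58. As shares these are 45.5% and 77.3%, beside 38.6% and 85.3% of all regions. Regions called in OPC only were 15 of 66 here and 2 of 29 at the NMDA genes and Grid1, beside 14.7% of all regions. No gene of this group had a region near the 55.0 of Grin2b in OPC, where the highest value was 9.65, in Grik3. The 3 with the highest signal were kainate subunit genes. Grik2 had 14.7 in OL and 5.56 in OPC, 7143 bp before its start, Grik3 had 10.4 and 9.65, and Grik5 had 9.09 and 5. These counts were not tested against each other.

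**Figure D4:**
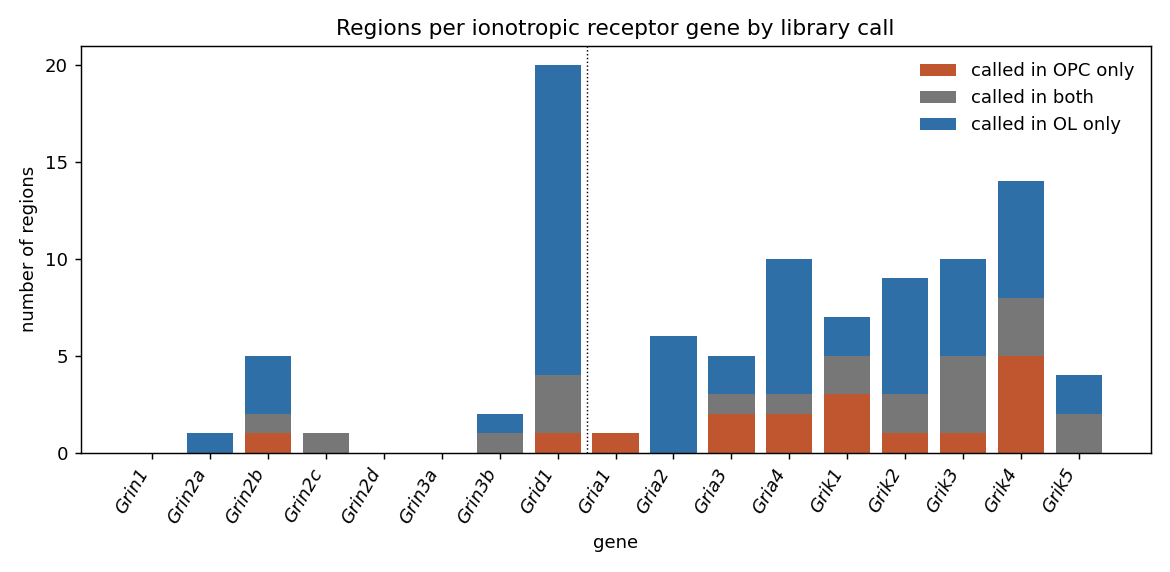
Number of regions (vertical axis) at each of the 8 genes, left of the dotted line, and at the AMPA and kainate receptor genes, right of it, coloured by which library had a call. Grid1 has 20 regions, 16 of them called in OL only, and Grin1, Grin2d and Grin3a have none.

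Genes that work with these receptors were described from 4 further lists, and for each the 3 with the highest signal are named. At the highest region of a gene, a ratio of 1 or more was found at 34.7% and of -1 or less at 4.19% of all gene names, with a median of 0.73. Among protein-coding genes as a whole, 56.5% had a region, 32.9% an OPC call and 53.9% an OL call, and the counts of these 4 lists, which were not matched for gene length, stand beside those shares. All 15 genes of postsynaptic scaffolds had a region, 10 with an OPC call and 15 with an OL call, with a ratio of 1 or more at 9, -1 or less at 0, and a median of 1.03. Dlgap1, a scaffold protein gene, had 17.2 in OPC and 24.04 in OL. Dlg2, whose product PSD-93 binds GluN2 tails, had 2.86 and 23.3 at chr7:98653156-98653804, a ratio of 2.66. Dlgap2 had 6.56 and 14.4. The highest regions of Dlg2 and Grid1 both had OPC signal below 3.00, the median of all regions. Both lay above 2, the OPC median of all regions called in OL only.

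Of 16 genes of signalling downstream of NMDA receptors, 13 had a region, 11 with an OPC call and 12 with an OL call. The ratio was 1 or more at 8 and -1 or less at 1, with a median of 1.39. Prkca, a protein kinase C gene, had 1.52 in OPC and 13.1 in OL. Camk2d, a calcium/calmodulin kinase gene, had 10.7 and 12.6. Fyn, a kinase gene whose product phosphorylates GluN2B, had 11.6 in OL and was listed at 0 in OPC at its highest region. The 1 gene with -1 or less was Camk2b, with 7.50 in OPC and 2.44 in OL, named after its value was seen. Nos1, Ppp3cb and Akap5 had no region.

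Supply and uptake of the co-agonists were covered by 9 genes, of which 8 had a region, 5 with an OPC call and 8 with an OL call. None had a ratio of 1 or more or -1 or less, and the median was 0.77. Psph, the phosphatase of the last step of serine synthesis, had a region 10 bp into the gene with 5.16 in OPC and 9.39 in OL. Srr, the racemase that makes D-serine, had 3.69 and 7.06, and Phgdh, which starts serine synthesis, had 6.94 and 4.94.

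Genes of glutamate uptake and release had a region at 6 of 8, of which 4 had an OPC call and 5 an OL call. The ratio was 1 or more at 2 and -1 or less at 2, with a median of 0.88. Slc1a3, the gene of the transporter GLAST, had 16.1 in OPC and 5.17 in OL, a ratio of -1.47. Slc1a1 had 7.06 and 13.2, and Slc1a2, the gene of GLT-1, had 4 and 8.56. Of the vesicular transporter genes, Slc17a6 had 1 region, called in OPC only, with 4.08 in OPC and 1 in OL and a ratio of -1.35, and Slc17a7 and Slc17a8 had no region. Slc17a6 was named after its value was seen.

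Likeness in signal was searched among regions with an assigned gene only, by distance in log2(signal + 1) over the 2 libraries. The highest region of Grid1 had 2.41 in OPC and 17.2 in OL, and the regions nearest to it are given here. They were a region of Map4k4, with 2.50 and 16.95 and a distance of 0.04, the Grid1 region at 147340 bp, with a distance of 0.07, and a region of C230093N12Rik, with 2.33 and 16.4 and a distance of 0.08. With 2 libraries many regions can lie this close.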

How the data were processed

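Per the file headers, the authors merged the intervals called in each of the 2 ChIP libraries into regions and deposited the average and the highest signal of each library per region, with its call. The submitters' processing notes name BWA, MACS 1.4.2 and the build mm9 without their roles. Neither the calling threshold nor the use of the input nor any scaling of the 2 libraries is stated in the sources used here, nor whether starts count from 0 or 1. Deposited distances run from the middle of a region to the gene start, and the starts they imply were equal within 0.5 bp over the regions of Grid1 and of Grin2b.

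From these values log2((OL + 1) / (OPC + 1)) was computed with Python 3.11.15 and pandas 2.3.3. The pseudocount of 1 understates the ratio of weak regions, and no filter on low signal was used. The counting was tested on simulated data. The highest region of a gene is that with the highest average signal in either library. Named in full by rule were the highest, first and last region of each gene, strong regions past a ratio of 1 or -1, and 3 genes of each list by signal, while other regions were named after their values were seen. The members and lists were chosen with earlier results of these data known. 1 further list of genes is not reported here. RefSeq (GRCm38.p6) gave names, neighbours and sequences, and all 8 members and 13006 of 14473 gene names (89.9%) matched. Regions under an unmatched name could be missed in the counts for neighbours, lists and protein-coding genes. Alternatives covered the pseudocount, the highest signal, scaling, the ratio threshold, stricter calls, the regions kept and the start window.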

Additional observations from a re-analysis of the deposited data

How the results depend on the processing

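No paired analysis was possible because each state has 1 library and no test was run. With 1 library per state and unknown depth, no replicate could be left out and neither biological nor technical spread is known. The count of member regions at a ratio of 1 or more, 15 as reported, was 4 with a pseudocount of 5 and 8 with the median of all regions set to 0 (a shift of 0.74). It lay between 11 and 20 under the other settings over all members, and at 11 and 15 with only regions of no other gene and only regions inside a member. With the threshold raised to 1.5, 10 member regions reached it. The count at -1 or less, 0 as reported, was 1 with a pseudocount of 0.5, 1 with the highest signal, 1 with the median of shared regions set to 0 (a shift of 0.24) and 3 with the median of all regions set to 0. The median ratio of 1.01 became 1.09 with a pseudocount of 0.5, 0.56 with a pseudocount of 5, 1.87 with the highest signal, 0.76 with shared regions set to 0, 0.27 with all regions set to 0 and 1.10 inside the member genes. All regions moved too, with medians of 0.82, 0.41, 1.00, 0.49 and 0 in the first 5 of these settings. Kept only at or above the median signal of their library's calls, OPC calls fell from 8 to 2 and OL calls from 27 to 16. Within 2.5 kb of a member start there was 1 region instead of 0. Without Grid1, a setting chosen after seeing the data, 9 regions were left, with 4 OPC calls, 8 OL calls, 2 ratios of 1 or more and a median of 0.76. The highest region of Grin2b kept a ratio below 0 in each setting that used that region, from -1.48 to -0.25, while the mean over its 5 regions was 0.51. That of Grin3b, 0.20, was -0.04 and -0.53 with shared and with all regions set to 0. The causes of these changes were not tested beyond the arithmetic of each setting.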
